A study of Mus musculus with 32 samples.

Results

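Pmel T cells recovered from skin were compared with Pmel T cells recovered from liver by bulk RNA sequencing. Pmel cells are CD8+ T cells with a transgenic receptor for a peptide of the melanocyte protein Pmel (gp100), and the Thy1.1 allele marks them in a host. The comparison takes 4 skin and 4 liver samples, chosen by tissue from the 32 samples in 8 groups of the series. All 8 came from C57BL/6 mice aged 16 weeks with melanoma-associated vitiligo, a loss of pigment that follows an immune response to melanoma, and were taken 45 days after tumor surgery. Skin was digested with collagenase IV at 3 mg/mL and DNase I at 0.2 mg/mL for 45 min. Liver was pressed through a mesh, digested with collagenase IV at 0.6 mg/mL and DNase I at 0.1 mg/mL for 40 min and purified on Percoll. Tissue and preparation therefore cannot be told apart. How the Pmel cells entered the mice, and whether each sample came from a separate animal or a pool, is not given in the sources that were used. The p-values therefore speak only of the spread among samples. That spread was estimated from all 32 samples of the series, with 1 variance weight per group.

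Memory CD8+ T cells either circulate through blood and lymph or stay in a tissue. Cells that leave tissue follow sphingosine-1-phosphate through the receptor S1pr1, whose gene is switched on by the transcription factor Klf2. Resident cells keep both low, display Cd69, and in skin commonly carry the integrin chain CD103 (Itgae), which pairs with Itgb7, binds E-cadherin on keratinocytes and is induced by TGF-beta. Liver resident cells lie in the sinusoids, in contact with blood, and rely less on CD103.

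The files give TPM, a length-corrected transcript share scaled to 1 fixed sum per library, so a gene's level depends on what other RNA the library holds. Depth is unknown. T cell RNA was abundant in 4 of the 8 libraries. T cell identity was read from 16 genes, among them those of the CD3 complex and CD8, which summed to 9462, 11699, 9999 and 2104 TPM in skin replicates 1 to 4, and to 11079, 2452, 3020 and 1862 TPM in liver replicates 1 to 4. Skin replicate 4 and liver replicates 2, 3 and 4 lay under 0.5 of the median of all 32 libraries. None of the 16 was called, 16 of 16 had a positive difference, and 5 had an unadjusted p under 0.05. Of all 19738 genes tested, 14547 had a positive difference and 2422 had an unadjusted p under 0.05. Trbv14, the beta segment of the Pmel receptor, was likewise low in those 4, at 13181, 17214, 15598 and 2257 TPM in skin and 12208, 3618, 3066 and 288 TPM in liver. RNA of other cells was present and differed by tissue. Hepatocyte markers summed to 1621, 22566, 10242 and 73324 TPM in liver and to between 125 and 1010 TPM in skin. Erythroid markers summed to 29699, 628, 17087 and 91547 TPM in liver and to at most 642 TPM in skin. Myeloid markers reached between 20125 and 26918 TPM in liver replicates 2 to 4, 2223 TPM in liver replicate 1 and 10580 TPM in skin replicate 3. Keratinocyte markers summed to 3842, 2581, 587 and 9324 TPM in skin and to at most 72.5 TPM in liver. Liver replicate 2 also had only 10732 genes above 0, and 877 genes at 5 TPM or more in all other 31 libraries were listed at 0 in it. No other skin or liver library had more than 2 such genes. A value of 0 in that library is therefore given as listed at 0. In skin replicate 4 a single predicted gene, Gm10800, took 26.2% of all TPM.

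**Figure D1:**
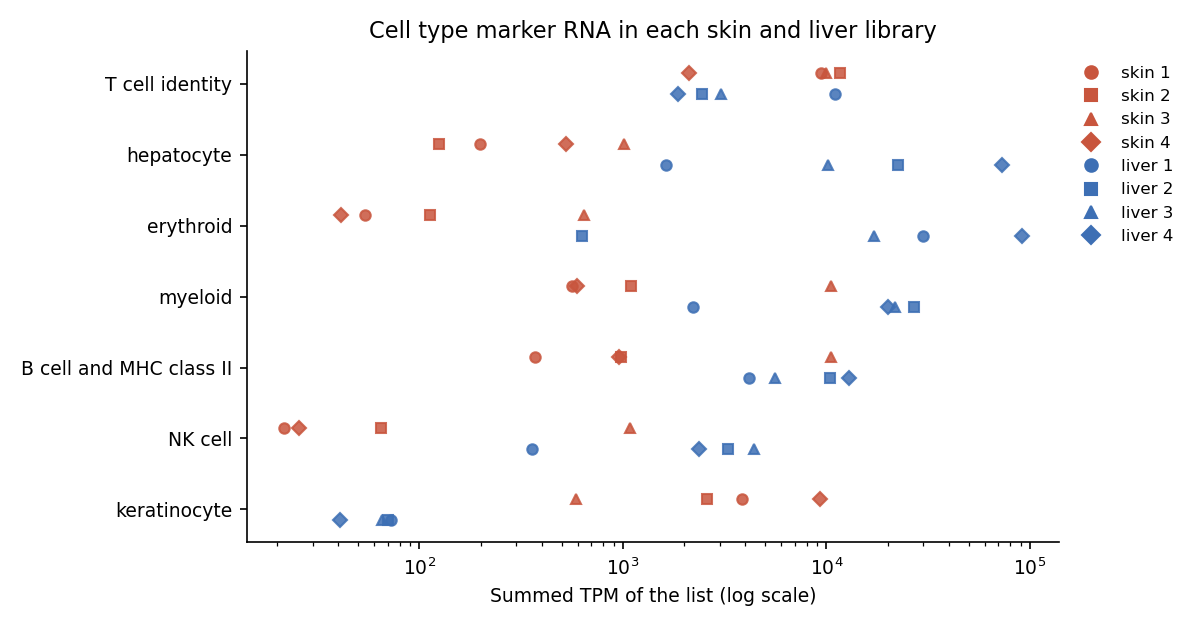
Summed TPM (log scale) of the T cell identity list and of marker lists of other cell types, 1 point per library, skin in red and liver in blue, with the replicate given by the symbol. Liver replicates 2, 3 and 4 and skin replicate 4 have the lowest T cell sums, between 1862 and 3020 TPM, hepatocyte RNA is highest in the liver libraries and keratinocyte RNA in the skin libraries.

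Across 19738 genes tested with limma, 111 were higher in skin (0.562% of those tested) and 120 were lower in skin (0.608%) at an adjusted p under 0.05, and 2422 genes had an unadjusted p under 0.05. The median difference over all genes was 0.46 on the log2(TPM + 1) scale, on which every difference below is given as skin minus liver. Part of the called set marks the tissues. Of the genes called lower in skin, 40 belong to the marker lists of other cells, 35 of these being hepatocyte genes, and 106 lay under 5 TPM on average in both naive Pmel cells and day 12 lymph node Pmel cells. Of the genes called higher in skin, 13 are marker genes, 11 of them of keratinocytes, and 83 lay under 5 TPM in both of those groups. That leaves 28 genes called higher and 14 called lower that the purer Pmel groups also express at 5 TPM or more. Liver replicate 2 was listed at 0 for 97 of the 111 genes called higher. At most 10732 of the 19738 tested genes were above 0 in that library, so a 0 in it was common among all genes. The calls depend on single libraries. Without liver replicate 4 there were 9 higher and 11 lower genes, and without liver replicate 3 there were 22 and 56. Without liver replicate 1 there were 142 and 163, and without liver replicate 2 there were 124 and 154. Without skin replicate 1 there were 60 and 73, and without skin replicate 2 there were 76 and 70. Without skin replicate 3 there were 224 and 185, and without skin replicate 4 there were 319 and 134. When every library was rescaled to the same T cell identity sum, which takes the median of all genes to 0.03, 15 genes were higher and 69 lower. This rescaling raises the values of liver replicates 2, 3 and 4 and of skin replicate 4. Differences therefore tend to move toward liver, and a gene lower in skin passes more easily. After quantile normalization 95 were higher and 194 lower. A fit of the skin and liver libraries alone, without the other groups' share in the error, called 4 higher and 0 lower genes, with 2199 at an unadjusted p under 0.05, and a pseudocount of 0.1 in place of 1 gave 0 and 1, with 2507. Of 36 genes that were named by rule and passed the test, 0 did so in that 2-group fit (adjusted p of 0.052 to 0.415). With the smaller pseudocount 1 did so, Tm4sf4. In bulk samples, fewer T cells in a library and less RNA per T cell cannot be told apart.

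Genes of secreted effector molecules were among those higher in skin. Of the 22 tested genes of the cytokine and chemokine list, 5 were higher in skin and 0 lower, which is 22.7% against 0.562% of all genes, with a list median of 1.95. They were Ifng, the main antiviral and antitumor cytokine of CD8+ T cells and a driver of vitiligo, Ccl1, the ligand of Ccr8, Tnfsf11 (RANKL), a ligand of the TNF family, Csf2 (GM-CSF), which acts on myeloid cells, and Lta (lymphotoxin alpha). Promoter sequence is shown for 3 of these 5 and, for contrast, for Klf2, which moved the other way. Each run is the 250 bases before the RefSeq start on the gene's strand, build GRCm38.p6, and capitals mark GGAAA, the core bound by NFAT factors of the calcium pathway, TATAAA, and GGGCGG, the GC box, each on either strand.

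Ifng: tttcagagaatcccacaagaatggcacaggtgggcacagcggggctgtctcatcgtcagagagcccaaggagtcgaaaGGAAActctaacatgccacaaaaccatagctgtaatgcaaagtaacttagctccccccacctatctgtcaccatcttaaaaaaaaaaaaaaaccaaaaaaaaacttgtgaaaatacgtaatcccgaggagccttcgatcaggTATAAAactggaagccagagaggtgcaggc
Ccl1: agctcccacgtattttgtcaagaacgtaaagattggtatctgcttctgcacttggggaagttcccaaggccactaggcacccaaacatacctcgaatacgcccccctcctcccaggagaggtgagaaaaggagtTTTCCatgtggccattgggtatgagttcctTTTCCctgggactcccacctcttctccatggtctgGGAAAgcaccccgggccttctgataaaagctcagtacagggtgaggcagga
Tnfsf11: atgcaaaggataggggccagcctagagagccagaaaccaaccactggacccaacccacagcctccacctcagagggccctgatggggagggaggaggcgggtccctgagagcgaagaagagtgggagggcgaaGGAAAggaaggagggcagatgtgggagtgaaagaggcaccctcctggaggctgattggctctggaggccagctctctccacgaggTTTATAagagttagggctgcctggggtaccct
Klf2: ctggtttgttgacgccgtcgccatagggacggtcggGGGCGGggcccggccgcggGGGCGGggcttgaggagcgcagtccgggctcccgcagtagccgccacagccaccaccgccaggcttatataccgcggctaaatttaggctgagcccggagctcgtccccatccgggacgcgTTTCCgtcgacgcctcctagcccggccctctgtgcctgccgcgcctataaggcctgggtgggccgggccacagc

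These windows lie at chr10:118440796-118441045 on the plus strand for Ifng, chr11:82179813-82180062 on the minus strand for Ccl1, chr14:78308044-78308293 on the minus strand for Tnfsf11 and chr8:72318812-72319061 on the plus strand for Klf2. GGAAA occurred 1 time before Ifng, 3 times before Ccl1, 2 times each before Csf2 and Lta, and 1 time each before Tnfsf11 and Klf2. It occurs in 55.6% of the 32851 RefSeq promoter windows of this length, so its presence is common. TATAAA was found before Ifng, Tnfsf11 and Lta and occurs in 12.4% of all windows. GGGCGG was found 2 times before Klf2 and 1 time before Csf2, and occurs in 32.7% of all windows. The AP-1 motif TGANTCA, which 6.7% of windows hold, was in none of these 6 windows. These matches describe letters in a window and not bound sites.

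Ifng stood at 3230, 2078, 1100 and 839 TPM in skin replicates 1 to 4 and at 540, 39.5, 120 and 77.3 TPM in liver replicates 1 to 4. All 4 skin libraries lay above all 4 liver libraries, with the T cell poor skin replicate 4 still above liver replicate 1. The difference was 3.72 ± 0.89 (SE), 13.1-fold, with an adjusted p of 0.0285. Tnfsf11 was at 152, 114, 115 and 22.7 TPM in skin and at 9.12, 0, 1.15 and 1.54 TPM in liver, a difference of 4.93 ± 0.90 (SE) with an adjusted p of 0.0039. Ccl1 was at 1080.4, 633, 1278 and 14.1 TPM in skin and at 5.11, 0, 9.40 and 0 TPM in liver. Its skin replicate 4 lay close to the liver values, and the difference of 6.91 ± 1.78 (SE) was at the edge of the threshold, with an adjusted p of 0.049. Csf2 was at 104, 61.8, 42.4 and 19.4 TPM in skin and at 2.86, 3.73, 0.38 and 2.24 TPM in liver, a difference of 4.03 ± 0.92 (SE) with an adjusted p of 0.0186. Lta, named after its values were seen, was at 39.3, 27.5, 33.4 and 9.47 TPM in skin and at 9.51, 0, 7.37 and 3.60 TPM in liver, with an adjusted p of 0.0158. Its lowest skin library lay just under the highest liver library.

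Other cytokine genes pointed the same way without passing the test. Tnf, at 191, 239, 78.9 and 78.0 TPM in skin and 29.6, 2.60, 33.5 and 18.4 TPM in liver, did not overlap between the tissues and had an adjusted p of 0.118. Il2, the T cell growth factor, did not overlap either, at 23.5 to 91.5 TPM in skin and 1.76 to 16.6 TPM in liver, with an adjusted p of 0.27. In all, 8 of the 22 tested members lay higher in every skin library than in any liver library, and 5.12% of all genes did. The chemokines Ccl3, Ccl4 and Ccl5 did not follow. Ccl5, the most abundant of the list in liver, was at 3036, 3316, 3158 and 467 TPM in skin and 17229, 5438, 11832 and 1552 TPM in liver, a difference of -1.71 with an adjusted p of 0.609. Several calls in this group rest on single libraries. Ifng lost its call without skin replicate 1, skin replicate 2, liver replicate 3 or liver replicate 4 (adjusted p of 0.116, 0.0901, 0.189 and 0.25), and Csf2 without the same 4 (0.082, 0.0607, 0.241 and 0.188). Ccl1 lost its call without any 1 of 6 libraries, with adjusted p up to 0.31, and Tnfsf11 lost it without liver replicate 4, at 0.0792. After rescaling to the same T cell identity sum only Tnfsf11 of this list stayed under the threshold, at 0.0337, while Ifng moved to 2.75 with an adjusted p of 0.198 and the list median stood at 1.23.

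Genes of tissue residency and adhesion were also higher in skin in part. Of 38 tested members of the residency list, 5 were higher in skin (13.2%) and 0 lower, with a median of 1.19. These were Itgae, the E-cadherin binding integrin chain, Cdh1, E-cadherin itself, the chemokine receptor Ccr8, which marks skin T cells, the glutaminyl cyclase gene Qpct and the TGF-beta feedback gene Ldlrad4. Itgae (chr11:73090583-73147446, plus strand, mm10) was at 502, 575, 339 and 107 TPM in skin and at 129, 16.9, 9.08 and 9.06 TPM in liver. Skin replicates 1 to 3 lay above all liver libraries, and skin replicate 4 lay under liver replicate 1, the liver library with the most T cell RNA. The difference was 3.87 ± 0.85 (SE), 14.6-fold, with an adjusted p of 0.0139. Itgb7, its partner chain, did not differ beyond its error, at 0.41 with an adjusted p of 0.901. Ccr8 was at 279, 415, 335 and 84.2 TPM in skin and at 135, 0, 9.43 and 5.43 TPM in liver, a difference of 4.62 ± 0.89 (SE) with an adjusted p of 0.00556. As with Itgae, liver replicate 1 overlapped skin replicate 4.

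Cdh1 was at 123, 106, 73.3 and 34.1 TPM in skin and at 2.15, 0, 2.66 and 2.96 TPM in liver. No libraries overlapped, and the difference was 4.89 ± 0.83 (SE) with an adjusted p of 0.00232. Keratinocytes express Cdh1 too, and keratinocyte RNA was present in skin. In skin replicate 3, which held the least of it, the basal keratin gene Krt14 was at 10.5 TPM and Cdh1 at 73.3 TPM, and in skin replicate 4, which held the most, they were at 797 and 34.1 TPM. Rescaled to T cell identity, Cdh1 stood at 109, 76.4, 61.6 and 136 in skin replicates 1 to 4, which is the order of the keratinocyte marker sums, and the part of keratinocyte RNA in this result was not tested. Qpct was at 150, 170, 159 and 43.0 TPM in skin and 42.6, 0, 9.84 and 25.1 TPM in liver, with an adjusted p of 0.0128. Cdh1 kept its call whichever of the 8 libraries was left out. Itgae lost it without skin replicate 1, skin replicate 2, liver replicate 3 or liver replicate 4 (adjusted p of 0.0533, 0.055, 0.186 and 0.21), Ccr8 without liver replicate 4 (0.0985) and Qpct without liver replicate 3 or 4 (0.0879 and 0.0765). After rescaling to T cell identity the list median was 0.22, Itgae stood at 2.95 with an adjusted p of 0.074, and Cdh1 and Ccr8 stayed under the threshold at 0.0285 and 0.026.

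The best known residency genes apart from Itgae did not pass the test as fitted here. Cd69, which holds S1pr1 inside the cell, was at 1120.5, 988, 483 and 295 TPM in skin and 706, 248, 123 and 263 TPM in liver, a difference of 1.20 ± 0.62 (SE) with an adjusted p of 0.438. The chemokine receptor Cxcr6 was at 1052, 1244, 1201 and 340 TPM in skin and 1266, 537, 201 and 137 TPM in liver, with an adjusted p of 0.497. Liver replicate 1 was thus at the level of the skin libraries for Cxcr6. Itga1, the collagen binding chain CD49a, was at 49.8, 61.0, 38.9 and 8.24 TPM in skin and 24.7, 0, 2.99 and 5.19 TPM in liver, a difference of 2.71 ± 0.89 (SE) with an adjusted p of 0.163. The transcription factors Zfp683 (Hobit) and Prdm1 (Blimp1) had differences of 0.63 and 1.26 with adjusted p of 0.868 and 0.487. Relative to T cell identity, Cd69 and Cxcr6 differed by 0.22 and 0.23, and Zfp683 changed sign to -0.27. With a weight per library in place of group weights, Itga1, Cd69, Prdm1 and Cxcr6 passed (adjusted p of 0.004, 0.0361, 0.0156 and 0.00779), and Itga1 also passed without group weights (0.00843) and without skin replicate 4 (0.0226).

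**Figure D2:**
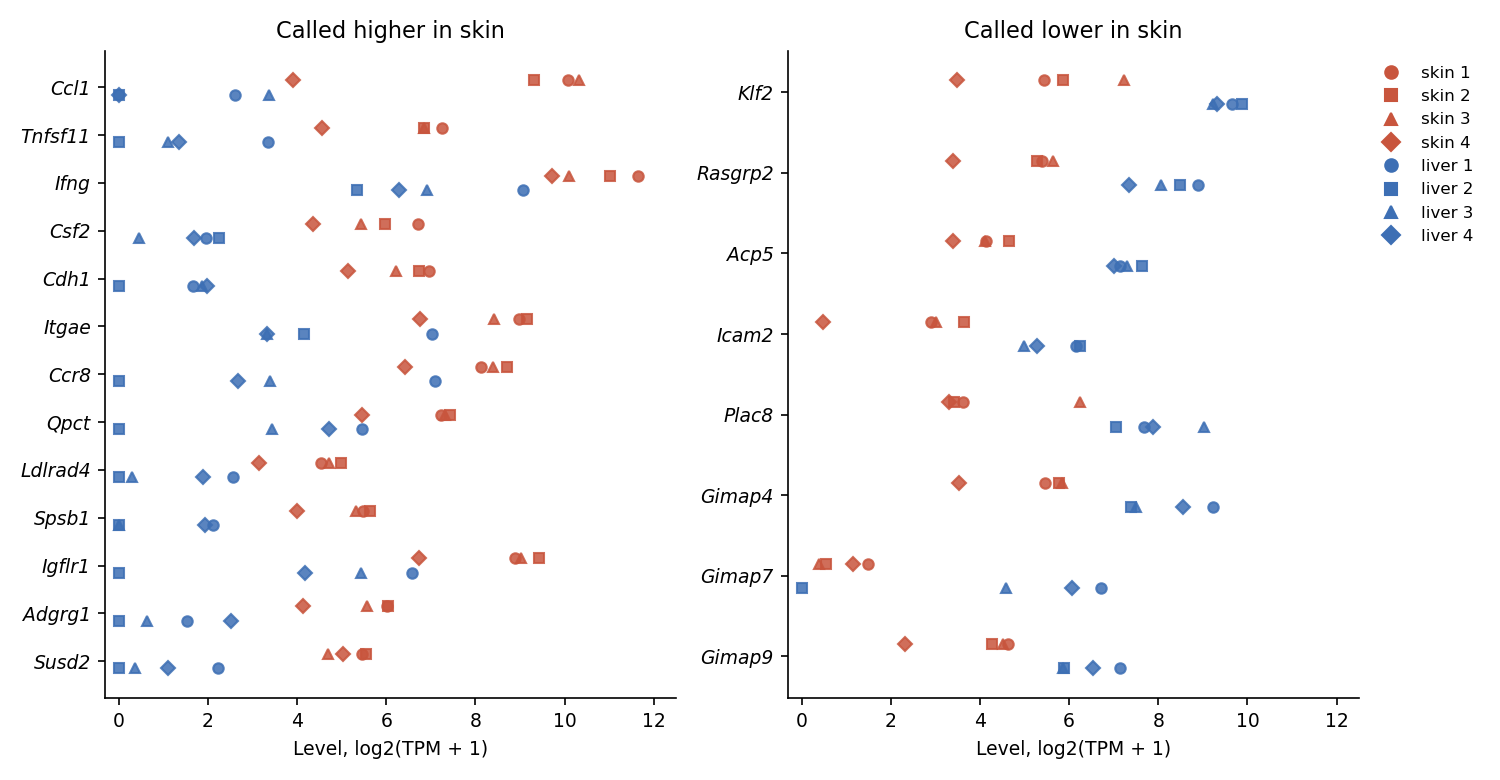
Level of 21 called genes in each skin (red) and liver (blue) library on the log2(TPM + 1) scale, with the replicate given by the symbol. Genes called higher in skin are on the left and genes called lower on the right. Skin replicate 4 is often the lowest of the skin libraries in both panels, and liver replicate 2 is listed at 0 for 10 of the 13 genes on the left.

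The TGF-beta list had the highest median of the 19 program lists, at 2.17. Of its 19 tested members, 4 were higher in skin (21.1%) and 0 were lower. A positive difference was seen in 19 of 19, and in 14547 of all 19738 genes tested. Itgae and Cdh1, which this list shares with the residency list, and Spsb1 and Ldlrad4, which restrain TGF-beta receptor signalling, were the 4 called. Spsb1 was at 43.5, 49.0, 39.2 and 14.99 TPM in skin and at 3.35, 0, 0 and 2.83 TPM in liver, a difference of 4.10 ± 0.75 (SE) with an adjusted p of 0.0039. Ldlrad4 was at 22.3, 30.8, 25.2 and 7.91 TPM in skin and at 4.93, 0, 0.23 and 2.72 TPM in liver, a difference of 3.16 ± 0.59 (SE) with an adjusted p of 0.00412. Neither gene overlapped between the tissues. Smad7, the inhibitory Smad and a direct target of the pathway, was at 56.0, 42.4, 31.4 and 13.7 TPM in skin and 9.95, 5.32, 4.07 and 7.21 TPM in liver. It did not overlap either, and its adjusted p was 0.0612. The receptor gene Tgfbr2 had a difference of 2.43 (adjusted p of 0.194) and the signal transducer Smad3 one of 0.02 (adjusted p of 1). Spsb1 lost its call without liver replicate 3 (0.0608) and Ldlrad4 without liver replicate 3 or 4 (0.0632 and 0.0506). Rescaled to T cell identity the list median was 1.74, and Spsb1 and Ldlrad4 stood at 3.97 and 2.93 with adjusted p of 0.0606 and 0.0677. Without the libraries poor in T cell RNA, which leaves 3 skin libraries and 1 liver library whose spread is assumed to be that of the other groups, 11 of 19 members were higher and 0 lower, and 7.3% of all genes were higher in that fit.

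Genes of recirculation were lower in skin, led by Klf2. Of 32 tested members of the circulation list, 2 were lower in skin (6.2% against 0.608% of all genes) and 0 higher, with a median of -0.88. Klf2 (chr8:72319033-72321656, plus strand, mm10) was at 42.5, 57.3, 150 and 10.2 TPM in skin and at 802, 932, 594 and 639 TPM in liver. Every skin library lay under every liver library, and the liver values lay within 594 to 932 TPM while the T cell identity sums of those libraries spanned 1862 to 11079 TPM. The difference was -4.01 ± 0.76 (SE), 16.1-fold, with an adjusted p of 0.00496. Rasgrp2, the exchange factor that activates Rap1 and integrins, was at 40.8, 38.1, 48.7 and 9.46 TPM in skin and at 475, 357, 268 and 162 TPM in liver. It fell by 3.28 ± 0.52 (SE) in skin, with an adjusted p of 0.0012, and kept its call whichever library was left out. In all, 4 of 32 members lay lower in every skin library than in any liver library, and 0.897% of all genes did. Among single libraries left out, liver replicate 4 alone ended the call of Klf2, at an adjusted p of 0.0823, and the fit of skin and liver alone (0.134) and the pseudocount of 0.1 (0.173) ended it too. Rescaled to T cell identity both remained called, Klf2 at -5.01 (adjusted p of 0.0018) and Rasgrp2 at -4.28 (0.000496). That rescaling raises the liver libraries poor in T cell RNA and so favors calls in this direction. Klf2 in liver replicate 2, for one, went from 932 to 3194. Cells other than T cells express Klf2 as well, and myeloid markers were higher in the liver libraries. Liver replicate 1, with the lowest myeloid sum of the liver libraries, 2223 TPM, had 802 TPM of Klf2. The same library held 29699 TPM of erythroid markers and 4163 TPM of B cell and MHC class II markers. Skin replicate 3, with 10580 TPM of myeloid markers, had the highest skin value, 150 TPM. The part of other cells' RNA in the Klf2 and Rasgrp2 results was not tested.

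Partners of Klf2 in egress varied widely between liver libraries. S1pr1 was at 1.66, 4.91, 10.1 and 0.80 TPM in skin and at 191, 0.23, 17.1 and 134 TPM in liver. The skin libraries were all low, the liver libraries ranged from below all of them to far above, and the difference of -2.71 ± 0.98 (SE) had an adjusted p of 0.223. Ccr7, a lymph node homing receptor, was at 9.35, 9.51, 10.2 and 1.60 TPM in skin and at 153, 0, 22.9 and 583 TPM in liver, with an adjusted p of 0.567. Tcf7, a factor of naive and stem-like cells, was at 47.9, 74.9, 56.7 and 19.9 TPM in skin and 65.7, 44.2, 6.21 and 114 TPM in liver, and its difference of 0.21 turned negative in 6 of the 20 alternative fits. S1pr1 passed the test after quantile normalization (adjusted p of 0.0454), without group weights (0.0481), with a weight per library (0.000269) and without liver replicate 2 (0.00321). Ccr7 passed with a weight per library (0.0245). Neither passed in any other alternative that kept more than 1 liver library. Without the libraries poor in T cell RNA, S1pr1 and Ccr7 passed at 9.36e-08 and 0.00814, and 20 of 32 members of the list were lower against 4.88% of all genes, but liver is then 1 library.

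Of the Gimap genes, a cluster of GTPases tied to lymphocyte survival, 3 of 8 were lower in skin. All 8 were tested, 3 were lower (37.5%) and 0 higher, and the list had the lowest median of the 19, at -1.77. A negative difference was seen in 8 of 8, and in 4927 of all 19738 genes tested. Gimap4 (chr6:48684549-48692060, plus strand, mm10) was at 43.0, 53.9, 56.5 and 10.6 TPM in skin and at 601, 168, 179 and 377 TPM in liver, a difference of -3.02 ± 0.62 (SE) with an adjusted p of 0.00854. Gimap9 was at 23.6, 18.2, 21.8 and 4.01 TPM in skin and at 141, 58.1, 57.2 and 92.1 TPM in liver, with an adjusted p of 0.0226. Neither overlapped. Gimap7 was at 1.79, 0.45, 0.30 and 1.23 TPM in skin and at 103, 0, 23.1 and 65.5 TPM in liver, with an adjusted p of 0.0293. Among the uncalled members, Gimap6 did not overlap (45.1 to 50.8 TPM in skin replicates 1 to 3 and 11.99 in replicate 4, against 50.9 to 417 TPM in liver), with an adjusted p of 0.102, and Gimap5 differed by -0.47. Leaving out liver replicate 1 or liver replicate 4 ended the call of Gimap4 (adjusted p of 0.0528 and 0.147) and, with liver replicate 3 added, that of Gimap9 (0.0884, 0.214 and 0.108). Gimap7 lost it without skin replicate 1 or 2 or liver replicate 1, 3 or 4, with adjusted p from 0.05 to 0.29. Rescaled to T cell identity, which favors calls lower in skin, Gimap4 and Gimap9 kept theirs with adjusted p of 6.73e-07 and 0.00146, and Gimap7 moved to 0.0704.

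Of the genes also expressed in naive or day 12 Pmel cells, several outside the lists were among the largest differences. Acp5, the tartrate resistant acid phosphatase, was at 16.5, 24.2, 16.3 and 9.52 TPM in skin and at 141, 199, 157 and 128 TPM in liver, a difference of -3.20 ± 0.53 (SE) with an adjusted p of 0.00186. It kept its call whichever library was left out and after rescaling to T cell identity (0.0042), which favors calls lower in skin. The adhesion molecule gene Icam2, a ligand of the integrin LFA-1, was at 6.43, 11.4, 7.08 and 0.39 TPM in skin and at 69.8, 74.6, 30.9 and 38.0 TPM in liver, with an adjusted p of 0.00892. It lost the call without liver replicate 3 or 4 (0.0504 and 0.103). Plac8 was at 11.3, 9.76, 74.2 and 8.88 TPM in skin and 205, 131, 520 and 236 TPM in liver, and Gngt2, a G protein gamma subunit, at 11.96, 11.8, 29.7 and 11.96 TPM in skin and 39.6, 557, 784 and 104 TPM in liver. For both, skin replicate 3 was the high skin library and liver replicate 3 the highest of all, and these libraries held 10580 and 21765 TPM of myeloid markers. Both lost the call without skin replicate 1, skin replicate 2, liver replicate 3 or liver replicate 4, with adjusted p up to 0.227 for Plac8 and 0.261 for Gngt2. The part of myeloid RNA in these 2 results was not tested, nor was the part of other cells' RNA in the Acp5 and Icam2 results.

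Outside the lists, genes higher in skin included Igflr1, a receptor of the TNF receptor family, the adhesion G protein coupled receptor Adgrg1 (GPR56), found on cytotoxic lymphocytes, and the membrane protein gene Susd2. Igflr1 lay above 5 TPM in naive or day 12 Pmel cells, and Adgrg1 and Susd2 lay under 5 TPM in both. Igflr1 was at 471, 683, 520.5 and 106 TPM in skin and at 95.3, 0, 42.4 and 17.2 TPM in liver, a difference of 4.47 ± 0.86 (SE) with an adjusted p of 0.00553. Adgrg1 was at 63.7, 64.6, 46.3 and 16.6 TPM in skin and at 1.91, 0, 0.55 and 4.75 TPM in liver, with an adjusted p of 0.00432. Susd2 was at 43.1, 45.7, 25.0 and 31.9 TPM in skin and at 3.68, 0, 0.29 and 1.14 TPM in liver, with an adjusted p of 0.00496. All 3 stayed called after rescaling to T cell identity (adjusted p of 0.0129, 0.0319 and 0.0315). Igflr1 lost its call without liver replicate 4 (0.0792), Adgrg1 without liver replicate 3 (0.0564) and Susd2 without liver replicate 3 or 4 (0.0632 and 0.0823). Ccl27a, Ly6c1 and Gsn, like Igflr1, lay at 5 TPM or more in naive or day 12 Pmel cells. Ccl27a, a chemokine made by keratinocytes, was at 289, 280.3, 68.2 and 901 TPM in skin, in the order of the keratinocyte marker sum, and at 21.8, 0, 17.6 and 1.63 TPM in liver, and lost its call without liver replicate 4 (0.147). Gsn (gelsolin) was at 149, 114, 74.9 and 189 TPM in skin and 29.3, 0, 1.74 and 65.5 TPM in liver, and lost its call without any 1 of 5 libraries (adjusted p up to 0.4). Ly6c1 was at 20.5 to 44.7 TPM in skin and at most 4.98 TPM in liver, and lost its call without liver replicate 3 or 4 (0.218 and 0.121).

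Genes of the killing machinery and inhibitory receptors gave no calls in this fit. Of 24 tested cytotoxic genes limma called 0. An unadjusted p under 0.05 was seen for 3 of the 24, and for 2422 of all 19738 genes. The list median of 0.06 became -0.83 after rescaling to T cell identity. Granzyme B, Gzmb, was at 812, 358, 489 and 124 TPM in skin and 3104, 720, 363 and 582 TPM in liver, a difference of -1.18 ± 0.79 (SE) with an adjusted p of 0.587. Liver replicate 1 was the highest library by far, and without the libraries poor in T cell RNA, where that library alone stands for liver, Gzmb stood at -2.57. Of 21 tested inhibitory receptor and exhaustion genes limma called 0, with 3 at an unadjusted p under 0.05 and a median of 0.75 that became -0.04 after that rescaling. Pdcd1 (PD-1) was at 668, 571, 482 and 42.7 TPM in skin and 517, 73.0, 23.9 and 30.6 TPM in liver, a difference of 2.02 ± 1.08 (SE) with an adjusted p of 0.46, which became 0.00759 with a weight per library. The libraries rich in T cell RNA were high in both tissues. Of 12 killer lectin receptor genes limma called 0, and 0 had an unadjusted p under 0.05. Among 16 tested chemokine receptors 1 was called (6.2%), Ccr8. The median of that list was -0.44, and Cxcr3, which guides T cells to interferon induced chemokines, stood at 69.8, 148, 116 and 22.1 TPM in skin and 228, 160.3, 48.3 and 43.3 TPM in liver. Its difference of -0.37 had an adjusted p of 0.905 and changed sign in 3 of the 20 alternative fits.

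**Figure D3:**
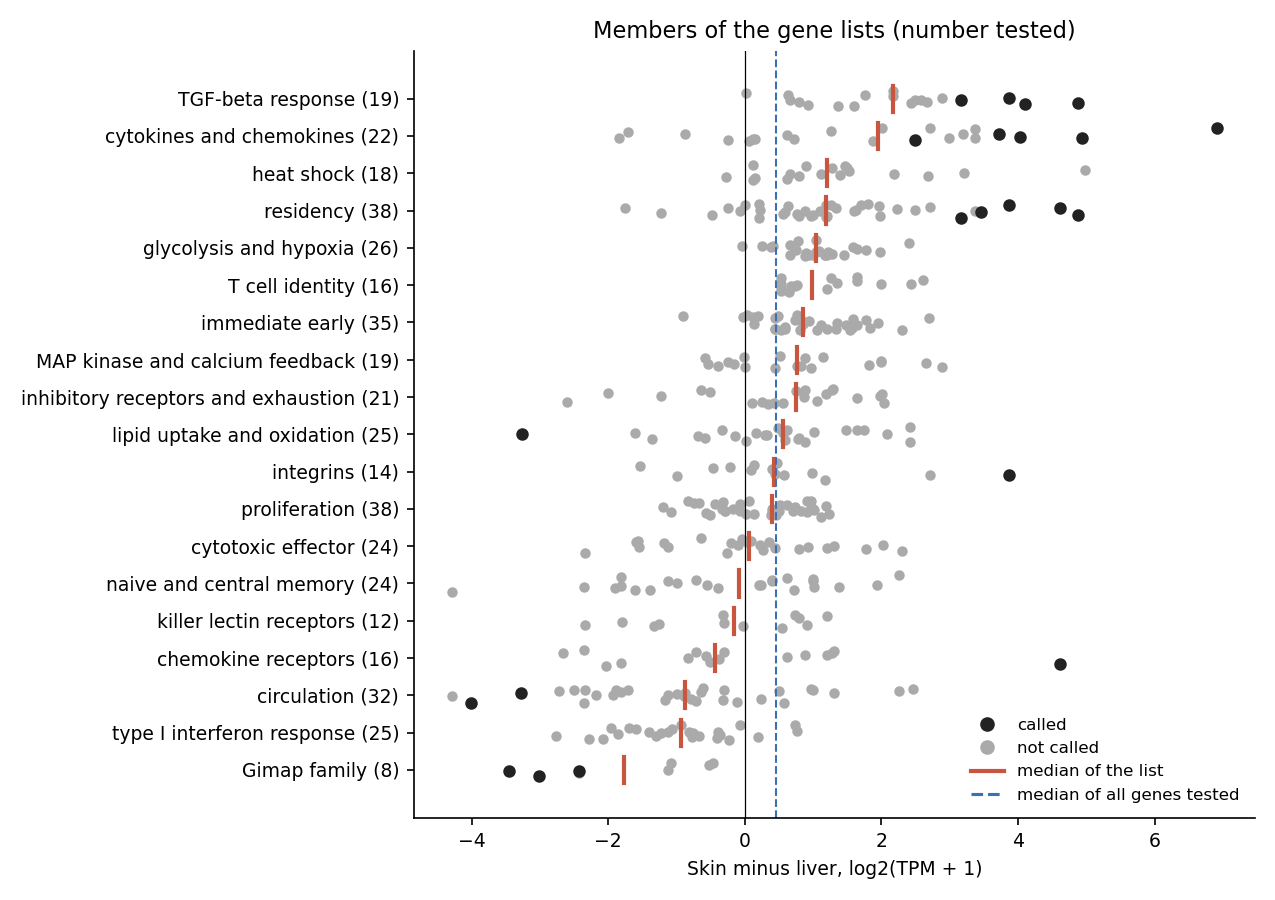
Difference between skin and liver on the log2(TPM + 1) scale for each tested member of the 19 program lists, black where called and grey where not, with the median of each list in red and the median of all 19738 genes, 0.46, as a dashed line. The TGF-beta list has the highest median, 2.17, and the Gimap family the lowest, -1.77.

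Immediate early genes were high in both tissues. These genes, such as Fos, Junb and Nr4a1, are switched on within minutes of receptor signalling or handling. Their median level per library, over the 35 genes of the list, was 8.44, 8.24, 8.09 and 6.07 on the log2(TPM + 1) scale in skin and 7.11, 7.47, 6.63 and 7.11 in liver. All 8 libraries lay above the highest of the 24 libraries of the other 6 groups, 5.59. The tissues differed from each other less. Limma called 0 of 35 genes, with 7 at an unadjusted p under 0.05, against 2422 of all 19738 genes. A positive difference was seen in 33 of 35, and in 14547 of all 19738. The list median of 0.86 became -0.12 after rescaling to T cell identity. It was 1.01 without the libraries poor in T cell RNA, where liver is 1 library. Fos was at 1743, 1952, 1242 and 825 TPM in skin and 456, 1595, 1093 and 851 TPM in liver, a difference of 0.59 with an adjusted p of 0.935. Nr4a1, a gene that tracks T cell receptor signals, was at 2954, 2189, 1124 and 533 TPM in skin and 1370, 462, 97.3 and 789 TPM in liver, with an adjusted p of 0.742. Both groups were digested with collagenase IV, so receptor signals in the tissue and the effect of digestion cannot be told apart. RNA of other cells was present in both tissues, and its part in these levels was not tested. Lung cells, digested with Liberase for 30 min, had medians of 3.80 to 5.36.

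**Figure D4:**
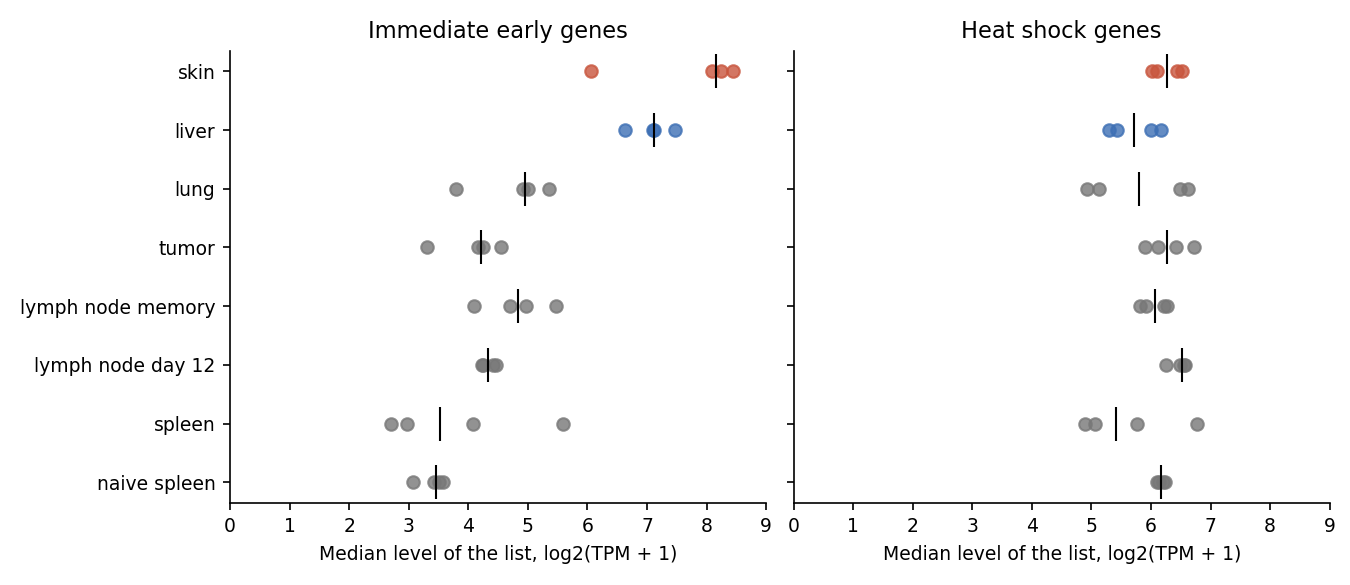
Median level of the immediate early list (left) and the heat shock list (right) in each library, on the log2(TPM + 1) scale, by group, with the group median as a black bar. Skin and liver lie between 6.07 and 8.44 for the immediate early genes, above all other groups, and overlap the other groups for the heat shock genes.

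Heat shock genes did not set the tissues apart from the other groups. Their median level was 6.02 to 6.52 in skin and 5.29 to 6.17 in liver, within the range of 4.89 to 6.77 of the other 24 libraries. Limma called 0 of 18, with 6 at an unadjusted p under 0.05, against 2422 of all 19738 genes. The inducible chaperone gene Hspa1b was at 2888, 1606, 219 and 360.1 TPM in skin and 48.7, 193, 48.4 and 103 TPM in liver. Every skin library lay above every liver library, but the skin values spanned a wide range and the adjusted p was 0.532. Type I interferon response genes leaned to liver, with a median of -0.93 and 22 of 25 negative, against 4927 of all 19738 genes. Limma called 0 of the 25, with 6 at an unadjusted p under 0.05. Ifit3 was at 10.9, 4.45, 55.4 and 3.82 TPM in skin and 56.5, 41.4, 31.0 and 49.8 TPM in liver, with skin replicate 3 at the level of the liver libraries, and its adjusted p was 0.349.

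Metabolic and cell cycle genes gave few calls. Of 26 glycolysis and hypoxia genes limma called 0. An unadjusted p under 0.05 was seen for 7 of the 26, and for 2422 of all 19738 genes. The list median of 1.04 became 0.10 after rescaling to T cell identity. Of 38 proliferation genes limma called 0, and 0 had an unadjusted p under 0.05. Mki67, the usual marker of cycling cells, was at 6.80, 4.78, 6.86 and 2.29 TPM in skin and 9.60, 16.5, 1.96 and 2.43 TPM in liver. The 25 lipid genes gave 1 call (4.0%). It was the fatty acid transporter gene Slc27a2, which hepatocytes express strongly, at 0.15, 0, 0.13 and 0.52 TPM in skin and 0.91, 30.9, 2.36 and 80.3 TPM in liver, where the order of the libraries was that of the hepatocyte marker sum. It lost its call without liver replicate 4 (adjusted p of 0.241). Fabp4, which supports fatty acid uptake in skin resident cells, was at 30.6, 40.0, 23.7 and 15.9 TPM in skin and 1.89, 26.4, 4.04 and 9.87 TPM in liver, a difference of 1.74 with an adjusted p of 0.431.

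Many large differences in either direction belonged to genes under 5 TPM in both naive and day 12 Pmel cells. Lower in skin were the major urinary protein genes Mup10 and Mup18, the prothrombin gene F2, the apolipoprotein gene Apoa5, the complement factor H related gene Cfhr2 and the tetraspanin-like gene Tm4sf4. The antithrombin gene Serpinc1, made by hepatocytes, was lower as well and had a median of 6.75 TPM in day 12 lymph node cells. Mup10 was at 100.4, 1514, 169 and 8710 TPM in liver and at most 15.1 TPM in skin, and the order of the liver libraries was that of the hepatocyte marker sum, whose part in the result was not tested. Tm4sf4 did not follow that order, at 92.1, 43.4, 384 and 21.3 TPM in liver and 0.15, 0, 0 and 0 TPM in skin, and it had the lowest adjusted p of all, 1.68e-08, with the call kept whichever library was left out. Without liver replicate 4 the calls of Mup10, Mup18, F2, Apoa5, Cfhr2 and Serpinc1 were lost (adjusted p of 0.21, 0.0792, 0.188, 0.121, 0.197 and 0.143), and that of Cfhr2 also without liver replicate 3 (0.0555). The Kupffer cell gene Clec4f was at 3.58, 2350, 1128 and 246 TPM in liver and at most 0.40 TPM in skin.

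Higher in skin were the defensin gene Defb6, the calmodulin-like gene Calm4 and Ly6g6c, all known from epidermis. Defb6 was at 128, 39.1, 76.8 and 486 TPM in skin and listed at 0 in all 4 liver libraries, with an adjusted p of 0.000969 and the call kept whichever library was left out. Calm4 was at 159, 106, 11.6 and 644 TPM in skin and listed at 0 in all liver libraries, and it lost its call without liver replicate 3 or 4 (adjusted p of 0.0788 and 0.121). Ly6g6c was at 240.1, 64.0, 2.03 and 496 TPM in skin and at most 0.31 TPM in liver, and it lost its call without any 1 of 6 libraries (up to 0.218). For Calm4 and Ly6g6c the order of the skin libraries was that of the keratinocyte marker sum, whose part in these results was not tested.

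Set against the other 6 groups, the genes called between skin and liver differed in which tissue stood apart. Ifng was higher in each skin library than in any of the other 28 libraries, the next group being tumor with a median of 421 TPM against 1589 TPM in skin. Tnfsf11, Spsb1, Cdh1, Adgrg1, Susd2 and Ldlrad4 likewise had 4 of 4 skin libraries above the other 28, and Cdh1, Adgrg1, Susd2 and Ldlrad4 lay under 5 TPM on average in both naive and day 12 Pmel cells. For Tnfsf11 the next median was 10.7 TPM, in lymph node memory cells, against 114 TPM in skin. Itgae and Ccr8 were different: lymph node memory cells, at medians of 324 and 224 TPM, overlapped skin at 420.4 and 307 TPM. Klf2 was at medians of 721 TPM in liver, 691 in spleen, 612 in lung and 575 in naive cells, all of which overlapped liver, against 49.9 TPM in skin and 9.42 TPM in tumor. For Gimap4 skin stood alone at the low end, at 10.6 to 56.5 TPM, with liver from 168 TPM and the other 6 groups from 356 TPM upward. The skin libraries were used in choosing these genes, so the order of the groups is a description.

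**Figure D5:**
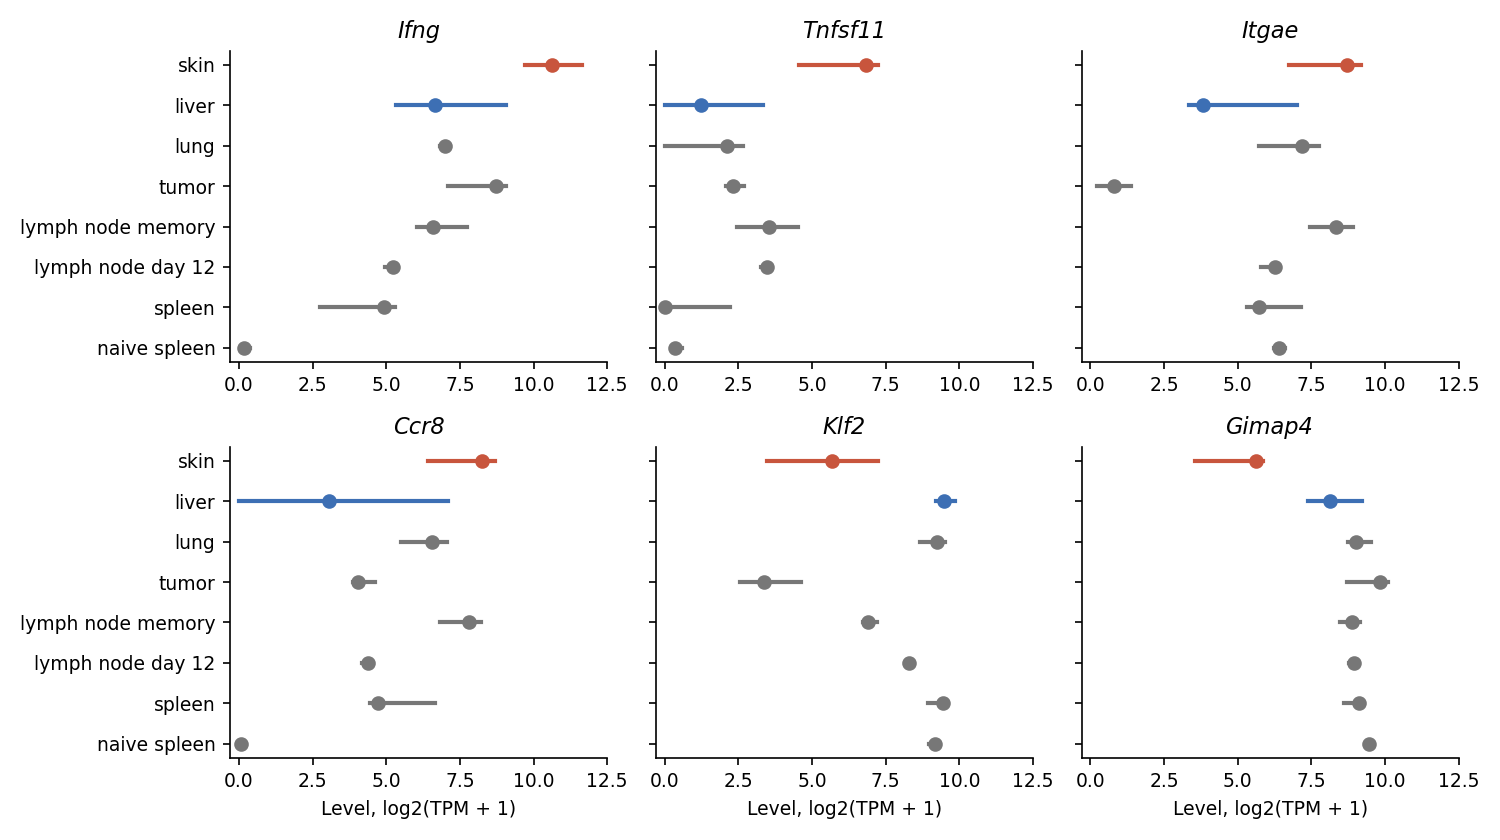
Level of 6 genes in the 8 groups on the log2(TPM + 1) scale, with the point at the group median and the line from the lowest to the highest of the 4 libraries. Skin is the highest group for Ifng and Tnfsf11, overlaps lymph node memory cells for Itgae and Ccr8, and is low with tumor for Klf2 and lowest for Gimap4.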

How the data were processed

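RNA of CD8+ Thy1.1+ Pmel T cells was sequenced in bulk from 32 samples, 8 groups of 4. Reads were aligned with Bowtie to mm10, per the submitters' processing notes. The sources used here give neither the aligner's version nor how reads were assigned to genes. The authors deposited natural log values of TPM + 1, settled from the values: converted back, they are multiples of 0.01 TPM, with library sums of 999999.06 to 1000000.8 TPM. Without counts, depth and counting error are unknown. Of 46517 names, 42052 (90.4%) matched 1 symbol of the GENCODE annotation of GRCm38.

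The 19738 genes that reached 1 TPM in 4 libraries or more were tested on log2(TPM + 1), a scale that understates the change of low genes, with limma 3.58.1 in R 4.3.3. All 8 groups entered, with 1 variance weight per group (residual SD 1.33 in liver, 0.85 in skin and 0.30 in day 12 lymph node) and a variance trend. P-values were adjusted by Benjamini-Hochberg and called under 0.05. The fit was tested on simulated data. Tables and figures used Python 3.11.15, NumPy 2.4.6, pandas 2.3.3 and Matplotlib 3.10.9. Promoter sequences are from RefSeq.

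The 19 program lists, 13 marker lists and named genes were chosen with earlier results of these data known. Genes were named by rule. It takes 14 core genes, up to 4 called genes per list, and called genes whose skin and liver libraries do not overlap and whose mean log2 level reaches 3. Of the latter it takes the 8 largest differences in each direction for genes at 5 TPM or more in naive or day 12 cells and the 6 largest for the rest, without predicted, receptor segment, mitochondrial, ribosomal and marker genes. Fos, Nr4a1, Hspa1b, Lta, Tnf, Il2, Ccl5, Itgb7, Smad7, Tgfbr2, Smad3, Gimap5, Gimap6, Ifit3, Mki67, Fabp4, Krt14, Clec4f, Trbv14 and Gm10800 were named after their values were seen. The 20 alternatives were 8 fits without 1 skin or liver library and 12 of weights, samples, filter, pseudocount, scaling, covariate and replicate block.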

Additional observations from a re-analysis of the deposited data

Results flagged for a closer look

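In sets of 4 libraries, the 47 genes named by rule and 11 marker sums were examined in skin and in liver, 116 sets in all. The search was for a library far from the other 3 on the log2 scale. Chance alone would mark about 1 in 20, and 15 were marked. In 10 of them skin replicate 4 was the low library. Its T cell identity sum was 2104 TPM against 9462 to 11699 TPM in the other skin libraries. For Cxcr6 it was at 339.7 TPM against 1052 to 1244, for Pdcd1 at 42.7 against 482 to 668, for Ccl1 at 14.1 against 633 to 1278, for Tnfsf11 at 22.7 against 114 to 152 and for Qpct at 43.0 against 150 to 170. For Ccr7 it was at 1.60 TPM against 9.35 to 10.2, for Rasgrp2 at 9.46 against 38.1 to 48.7, for Gimap4 at 10.6 against 43.0 to 56.5 and for Gimap9 at 4.01 against 18.2 to 23.6. These genes include ones called in both directions.

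Skin replicate 3 was the high library for Plac8, at 74.2 TPM against 8.88 to 11.3, and for Gngt2, at 29.7 TPM against 11.8 to 11.96. Skin replicate 1 was marked for Tm4sf4, at 0.15 TPM with the other 3 listed at 0. Among liver libraries, replicate 1 had a myeloid sum of 2223 TPM against 20125 to 26918 TPM in the others, and replicate 2 was listed at 0 for Cdh1 against 2.15 to 2.96 TPM.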

How the results depend on the processing

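All 36 called genes that were named by rule, which leaves out Lta, kept their direction under the 20 alternatives that gave a value. Much of this was fixed in advance. Fits that change only group weights, the groups entered, the filter or the replicate block leave the difference itself as it was. Genes named because their skin and liver libraries do not overlap cannot reverse when 1 library is left out. The kept direction is therefore no measure of how firm the calls are. Of these 36, 5 (Cdh1, Defb6, Rasgrp2, Acp5 and Tm4sf4) stayed called whichever skin or liver library was left out. None of the 36 stayed called when skin and liver alone were fitted, and 1 of 36 did with a pseudocount of 0.1. The counts moved far more. Higher and lower genes numbered 1447 and 438 without group weights, 851 and 481 with a weight per library, 378 and 198 without a filter, and 25 and 51 with a filter of 5 TPM. With only the skin and liver groups limma called 4 and 0 (2199 genes had an unadjusted p under 0.05), and a pseudocount of 0.1 gave 0 and 1 (2507 such genes). Quantile normalization gave 95 and 194. Rescaling without mitochondrial and other cells' marker genes gave 62 and 69, rescaling to T cell identity 15 and 69, and T cell identity as a covariate 57 and 128. Leaving out the libraries poor in T cell RNA gave 1440 and 963, with liver as 1 library. Leaving out 1 library gave 9 to 319 higher and 11 to 185 lower genes. With the replicate block there were 101 and 113, and Gsn and Ly6g6c lost their calls. Replicate numbers were not taken as a pairing, since the sources used do not say whether same-numbered samples share an animal. The correlations of same-numbered deviations were 0.10, -0.20, -0.07 and -0.01. Differently numbered libraries ranged from -0.43 to 0.42, so these correlations cannot decide whether the samples are paired.

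Signs changed in uncalled genes only. Zfp683 turned to -0.27 when rescaled to T cell identity and -0.11 with the covariate, and Cxcr6 to -0.12 without the libraries poor in T cell RNA. Cxcr3 turned to 0.67 with a weight per library and ranged from -0.74 to 0.18 with 1 library left out. Tcf7 turned to -0.027 when rescaled without other cells' genes, -0.74 when rescaled to T cell identity, -0.28 with the covariate and -0.16 without the libraries poor in T cell RNA, and ranged from -0.61 to 0.72 with 1 library left out. Where the text does not say otherwise, the cause of a change was not tested. Depth is unknown, so no limit of detection can be given.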
